A study of Mus musculus with 16 samples.

Results

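The integrins and laminins of metastatic MC38 tumors in mice are described here gene by gene. The members are every listed gene whose symbol is that of an integrin alpha or beta subunit or of a laminin alpha, beta or gamma chain. They were chosen by symbol and not by measured value. Earlier results of these data were known when the members and the gene lists used below were chosen. Of the 21959 genes listed, 38 are members, namely 27 integrin subunits and 11 laminin chains. Itgb1bp1, Itgb1bp2, Itgb3bp and Itgbl1 match only the start of an integrin symbol and are not members. Itgb2l, an integrin beta 2-like gene, was kept.

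Integrins are cell surface receptors made of 1 alpha and 1 beta chain that hold cells to the extracellular matrix or to other cells, and that signal through adaptor proteins at the membrane. Laminins are secreted trimers of an alpha, a beta and a gamma chain that build basement membranes and are themselves bound by integrins. In tumors they are known from cancer cells, vessels, fibroblasts and leukocytes, and some alphaV integrins release active TGF-β from its latent complex.

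RNA was measured in tumor tissue from the livers of 16 C57BL/6 male wild-type mice aged 6 weeks when MC38 cells, a mouse colon adenocarcinoma line, were placed in the lower hemispleen. The 4 groups of 4 mice were PBS control, SB525334 (an inhibitor of TGF-β receptor I, ALK5) at 20 mg/kg by daily gavage, KN046 (a bispecific antibody that blocks PD-L1 and CTLA-4) at 10 mg/kg into the peritoneum, and both agents, called the combination. All 4 groups carried the same cell line. The comparisons ask what each agent did to these genes, and whether SB525334 acted differently with and without KN046. The model is limited to 1 tumor cell line and to male mice. In bulk tissue, fewer cells of a type and less RNA per cell cannot be told apart.

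Library totals ranged from 18368994 to 23877131 counts. Levels are CPM, counts scaled to a common library size by the TMM method, and a gene passed the test where edgeR's quasi-likelihood test gave an adjusted p under 0.05 over the 13968 genes tested. Control mice 1 and 2 were very alike, and so were control mice 3 and 4. The median chi-square of their gene counts was 1.25 and 0.956, against at least 2.82 in the 22 other pairs of mice within a group. Each call is therefore also given with each control pair summed to 1 sample. Whether each pair came from 2 separate animals cannot be told from the counts, so n = 4 for control counts samples. The p-values measure the spread between these samples. The summed level of 15 hepatocyte markers was 15646 to 18343 CPM in control mice, 446 to 2076 CPM with SB525334, 9624 to 20095 CPM with KN046 and 62.8 to 77.9 CPM with the combination. The tissue label of liver metastases thus covered samples that held very different amounts of liver RNA. All 15 hepatocyte genes were lower with SB525334 and with the combination, and the part of this in the results below was not tested.

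**Figure D1:**
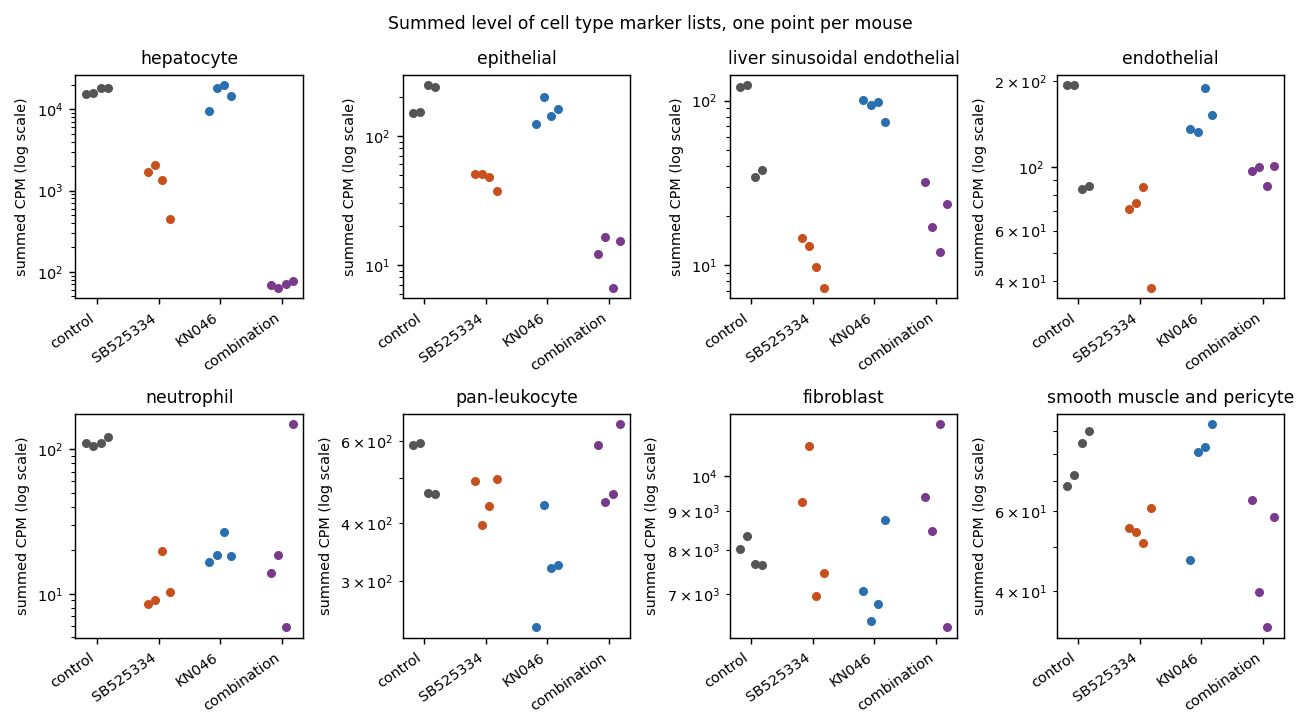
Summed CPM of 8 cell type marker lists (log scale, axes not starting at 0), 1 point per mouse and 1 color per group. The hepatocyte sum of the combination lies between 62.8 and 77.9 CPM, and combination mouse 4 stands apart from its group in the neutrophil sum at 149 CPM.

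Compared per length of exon, so that genes can be set side by side, Itgb1 led the members in every group. Itgb1, the beta chain shared by most matrix integrins, stood at 144 CPM per kb of exon in control mice. Itgb7, a leukocyte beta chain, came second in all 4 groups, with 89.6 CPM per kb in control mice. Its known partners were much lower there, with 1.09 CPM per kb for Itga4 and 0.479 CPM per kb for Itgae. Lamc1, Itga3, Lamb1, Itgb5 and Itga5 followed, between 54.0 and 37.3 CPM per kb in control mice. The lowest was Itgb6, at 0.0131 CPM per kb in control mice.

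The alpha and beta chains of laminin kept the same leading chain in all 4 groups. Lama5, the alpha chain of many mature basement membranes, made up 88.0% ± 2.28 (SD, n = 4) of the summed alpha-chain level per kb in control mice, and 92.8%, 92.5% and 94.1% on average with SB525334, KN046 and the combination. Lama4, an alpha chain of vessel basement membranes, made up 8.98%, 5.27%, 4.72% and 4.52% in the same order. Its share in control mice 1 to 4 was 11.6%, 10.8%, 6.82% and 6.72%. It ranged from 4.82% to 5.61% with SB525334, 2.80% to 6.40% with KN046 and 3.82% to 5.50% with the combination. Lamb1 made up 65.0% of the beta-chain level in control mice.

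**Figure D2:**
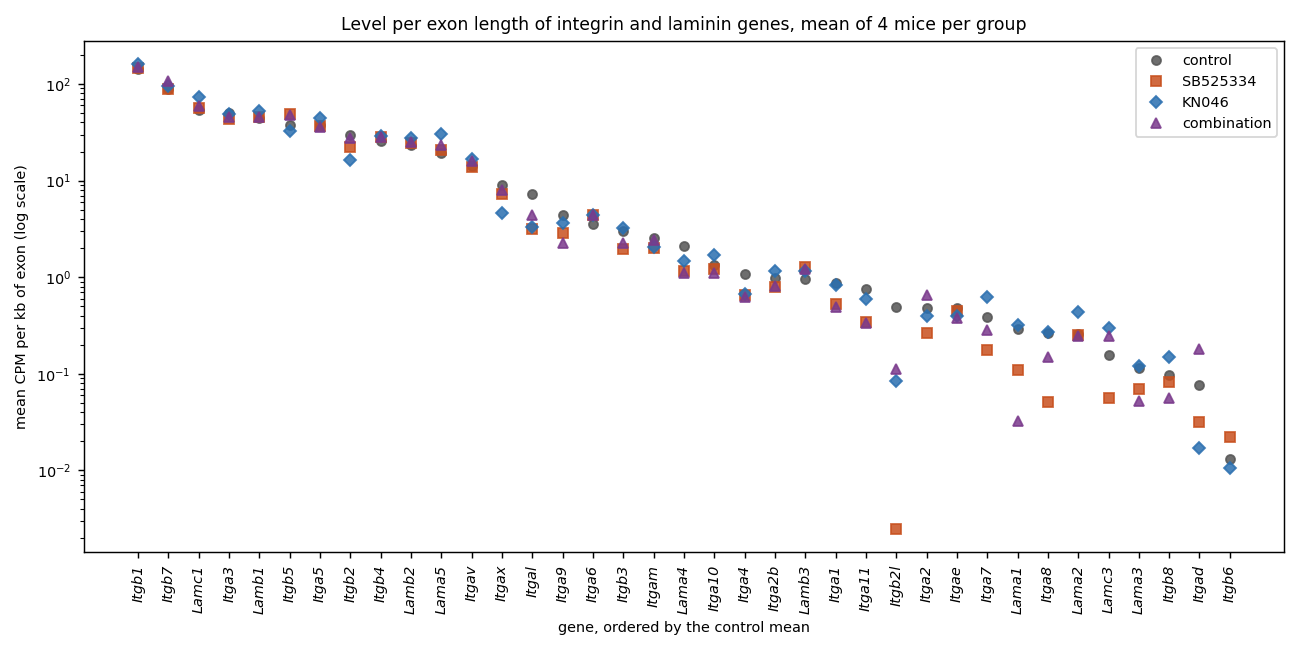
Mean CPM per kb of exon (log scale) of 37 of the genes in each group of 4 mice, ordered by the control mean from Itgb1 at 144 to Itgb6 at 0.0131. Itgb2l with SB525334 and Lama1 with the combination lie far below their control points, and Itgb6 with the combination is at 0 and so is not drawn.

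SB525334 lowered 5 members and raised 1 of the 37 tested. That is 16.2% of the members, where 9.61% of all genes tested passed (0.394% higher and 9.22% lower). The 5 that fell were Itgb2l, Itga8, Lamc3, Itga7 and Itga11, and the 1 that rose was Itgb5. The median log2 fold change of the members was -0.31, beside 0.00059 over all genes tested. With the control pairs summed, 2 of these calls held, Itgb2l and Itga8. DESeq2 called 9 members, 1 higher and 8 lower, beside 9.70% of the genes it tested. Its calls added Itga1, Lama1 and Lama4.

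Itgb2l encodes pactolus, a beta2-like protein known from neutrophils. Its level was 1.75, 2.79, 1.98 and 1.93 CPM in control mice 1 to 4. With SB525334 it was 0, 0, 0.043 and 0 CPM, which is a single count over the group. KN046 mice had 0.266, 0.924, 0.112 and 0.156 CPM, and combination mice 0.154, 0.11, 0 and 1.7 CPM. All 4 control mice lay above every treated mouse. Combination mouse 4 was close to the controls, unlike the other mice of its group. The summed counts of 175 in control and 1 with SB525334 gave a ratio of 198 (95% interval 35.1 to 7862, counting error only). The fitted log2 fold change of -6.98 (edgeR, SE 1.25, adjusted p = 0.000608) depends on the prior count. It passed with each of the 8 mice left out in turn, with adjusted p up to 0.0048 and a log2 fold change of -8.44 without SB525334 mouse 3, and with the control pairs summed (adjusted p = 0.00345).

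The neutrophil markers moved in the same mice. Of 6 neutrophil genes, 5 fell with SB525334, and none of the 6 was at 0 in all mice. Their summed level was 105 to 121 CPM in control mice, 8.54 to 19.9 CPM with SB525334 and 16.6 to 26.7 CPM with KN046. In combination mice it was 13.9, 18.7, 5.84 and 149 CPM, so that mouse 4 was high in both Itgb2l and the neutrophil sum. The part of these cells in the Itgb2l result was not tested. Itgb2l overlaps Igsf5 and Gm49948 on the other strand, and the strand setting of the counting is not given in the sources used here.

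Itga8 pairs with Itgb1 and is known from smooth muscle and other mesenchymal cells, where the complex binds nephronectin. Control mice had 4.29, 3.6, 1.57 and 1.93 CPM, and SB525334 mice 0.316, 0.637, 0.689 and 0.56 CPM. KN046 mice had 1.81, 4.04, 4.08 and 1.71 CPM, and combination mice 2.16, 0.993, 1.53 and 1.74 CPM. Every SB525334 mouse lay below every other mouse of the study, while the KN046 mice lay within the control range. The level with SB525334 was 5.13-fold lower than control (log2 fold change -2.36, edgeR SE 0.43, adjusted p = 0.000694). It passed with each of the 8 mice left out and with the control pairs summed (edgeR adjusted p = 0.00343). With the combination the log2 fold change was -0.83 (edgeR adjusted p = 0.23). A list of 5 smooth muscle and pericyte genes had 1 that fell with SB525334 and 1 that fell with the combination. Its summed level was 68.3 to 89.9 CPM in control and 51.0 to 60.9 CPM with SB525334. With KN046 it was 46.8 to 93.4 CPM, and with the combination 33.2 to 63.4 CPM. The mean sum was 55.2 CPM with SB525334 and 48.7 CPM with the combination, while mean Itga8 was 0.55 and 1.61 CPM. None of these 5 was at 0 in all mice, and their part in the Itga8 result was not tested.

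Lamc3, the gamma3 laminin chain, was 1.57, 2.08, 1.32 and 0.888 CPM in control mice and 0.271, 0.518, 0.645 and 0.689 CPM with SB525334. KN046 mice had 2.45, 4.23, 1.84 and 2.6 CPM, and combination mice 2.31, 2.59, 1.58 and 2.73 CPM. The SB525334 mice were the lowest of the 4 groups and did not overlap with control, whereas the combination mice overlapped with control and lay mostly above it. SB525334 gave a 2.74-fold lower level (log2 fold change -1.46, edgeR SE 0.37, adjusted p = 0.0144). Without control mouse 2 or SB525334 mouse 1 the edgeR adjusted p was 0.0684 and 0.0623, and with the control pairs summed it was 0.0515.

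Itga7, the alpha chain of a laminin receptor best known from muscle, stood at 3.37, 4.31, 2.64 and 2.67 CPM in control mice. It was 1.22, 2.15, 1.12 and 1.34 CPM with SB525334, all below the lowest control mouse. KN046 mice had 4.37, 6.66, 3.91 and 5.82 CPM, and combination mice 2.98, 2.21, 1.58 and 2.64 CPM. KN046 thus had the highest values and SB525334 the lowest, with the combination overlapping both control and SB525334. The log2 fold change with SB525334 was -1.15 (edgeR SE 0.29, adjusted p = 0.0126). Leaving out control mouse 2, SB525334 mouse 1 or SB525334 mouse 3 moved the edgeR adjusted p to between 0.0514 and 0.0605, and summing the control pairs to 0.0611. Itga7 overlaps Tmt1b on the other strand.

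Itga11 encodes the alpha chain of a collagen receptor typical of fibroblasts. Control mice had 3.32, 5.02, 5.33 and 5.02 CPM, SB525334 mice 2.62, 0.995, 2.28 and 2.63 CPM, KN046 mice 5.01, 2.14, 3.58 and 4 CPM, and combination mice 2.93, 1.16, 2.57 and 1.7 CPM. All 8 mice given SB525334, alone or with KN046, lay below all 4 control mice. The log2 fold change was -1.13 with SB525334 (edgeR SE 0.35, adjusted p = 0.0468) and -1.16 with the combination (edgeR SE 0.35, adjusted p = 0.0383), and these comparisons share the control mice. The SB525334 call held in 1 of the 8 fits with a mouse left out, the one without control mouse 1, and the adjusted p reached 0.144 without SB525334 mouse 2. The combination call held in 2 of 8, those without control mouse 1 or combination mouse 1, and its adjusted p reached 0.141 without combination mouse 2. With the control pairs summed, the edgeR adjusted p was 0.177 for SB525334 and 0.149 for the combination. A list of 7 fibroblast genes had none past the test with SB525334 and 2 lower with the combination. Its summed level was 7641 to 8339 CPM in control, 6950 to 10962 CPM with SB525334 and 6324 to 11710 CPM with the combination.

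Itgb5, the beta chain of the vitronectin receptor alphaVbeta5, was the member that rose. It ranged from 247 to 274 CPM in control mice (mean 263 ± 12.5, SD, n = 4), from 274 to 402 CPM with SB525334 (mean 347 ± 54.3), from 200 to 251 CPM with KN046 (mean 229 ± 24.1) and from 313 to 353 CPM with the combination (mean 336 ± 17.3). SB525334 touched the control range in 1 mouse and the combination lay wholly above it. The level with SB525334 was 1.32-fold that of control (log2 fold change 0.40, edgeR SE 0.11, adjusted p = 0.0287). This call was lost without control mouse 1 or 2 or without SB525334 mouse 1, 2 or 4, with adjusted p from 0.0514 to 0.112, and with the control pairs summed (0.178). For the combination against control the log2 fold change was 0.35 (edgeR adjusted p = 0.0513).

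Other members reached an unadjusted p under 0.05 with SB525334 without passing, which made 14 of 37 at that level, beside 18.9% of all genes tested. Lama1, an alpha chain of early and epithelial basement membranes, did not overlap between control and SB525334 (log2 fold change -1.43, edgeR adjusted p = 0.0955), nor did Itgal, the CD11a chain of LFA-1 (log2 fold change -1.18, edgeR adjusted p = 0.0876). Itgb1 had a log2 fold change of 0.01 (95% interval -0.28 to 0.30), so that a fold change of the size seen in Itga8 lies outside the interval.

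**Figure D3:**
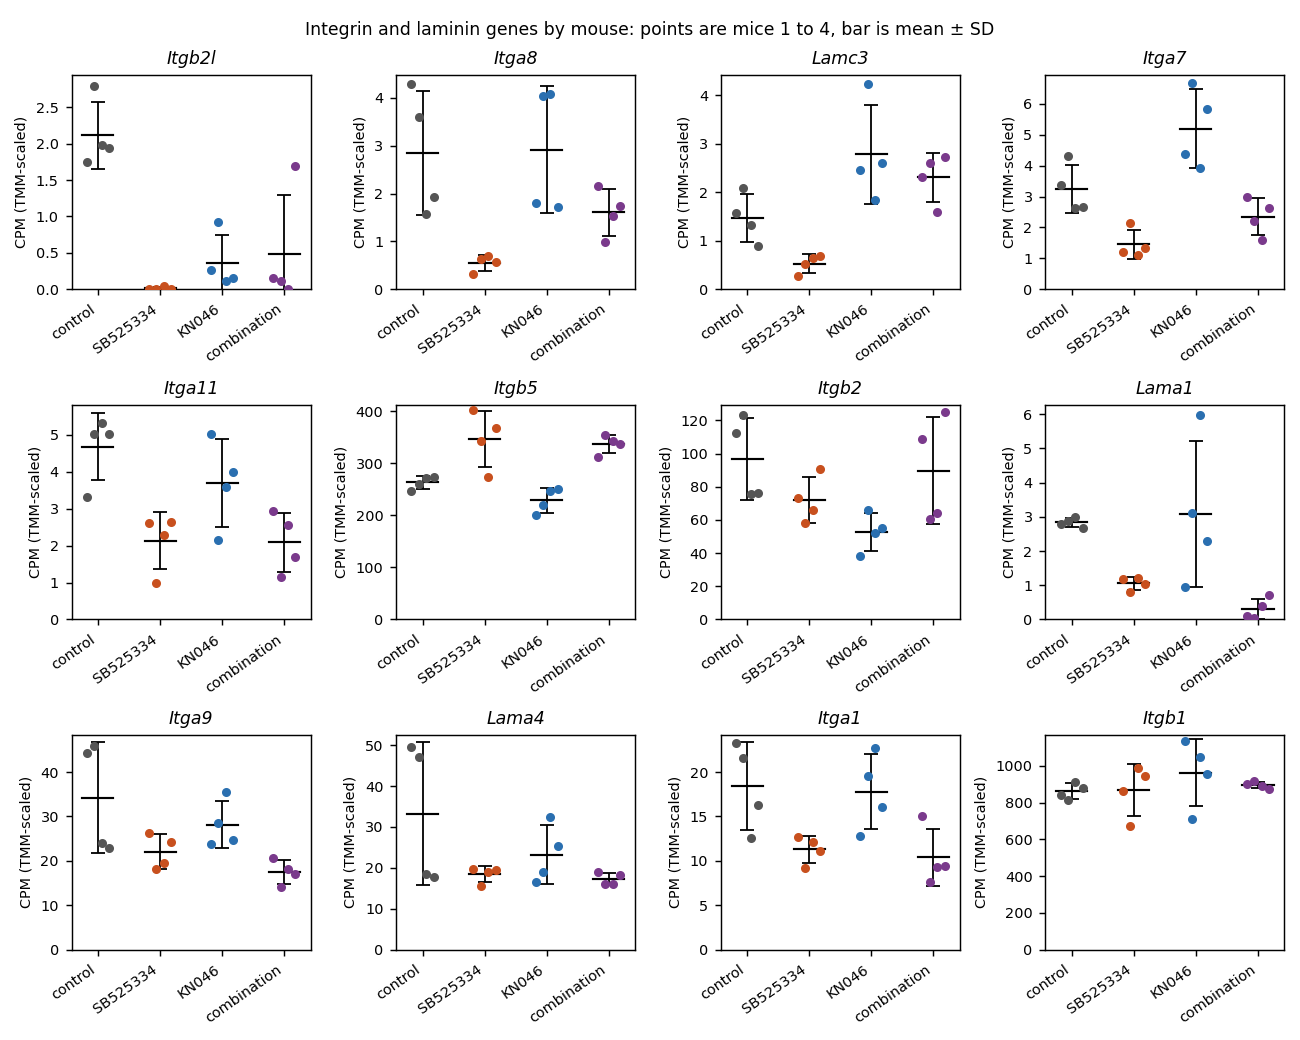
CPM of 12 members by mouse (linear axes from 0), with points for mice 1 to 4 of each group and a line and bar for the mean ± SD. The 4 SB525334 mice of Itga8 lie between 0.316 and 0.689 CPM, below every other mouse, and the combination mice of Lama1 lie between 0.0552 and 0.707 CPM.

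The stretches at the RefSeq starts of Itgb2l and Itga11 are printed because these genes fell with an inhibitor of TGF-β receptor I, and SMAD proteins, which carry that receptor's signal, bind the letters CAGAC or, on the other strand, GTCTG. Each is the 250 bases before the RefSeq start of transcription, from the GRCm38.p6 table, and each matched a single place of its chromosome in GRCm39, with capitals for CAGAC and GTCTG. The GENCODE annotation places the gene starts further out, so that the last 27 bases of the Itgb2l stretch and 29 bases of the Itga11 stretch lie in annotated exons.
Itgb2l, chr16:96244815-96245064, minus strand: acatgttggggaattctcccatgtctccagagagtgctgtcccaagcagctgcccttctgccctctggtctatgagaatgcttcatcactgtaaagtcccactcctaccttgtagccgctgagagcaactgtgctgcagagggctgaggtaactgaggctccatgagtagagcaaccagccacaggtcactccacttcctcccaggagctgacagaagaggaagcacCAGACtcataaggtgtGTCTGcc
Itga11, chr9:62584887-62585136, plus strand: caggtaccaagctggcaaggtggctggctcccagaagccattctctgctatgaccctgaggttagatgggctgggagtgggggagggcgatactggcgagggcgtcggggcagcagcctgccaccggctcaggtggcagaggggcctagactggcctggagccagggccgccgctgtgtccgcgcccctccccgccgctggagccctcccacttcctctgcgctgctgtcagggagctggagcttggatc
Itgb2l held 2 of these motifs, both within its exonic bases, and Itga11 held 0. Of the other members that fell or rose against control, Itga8, Itga9 and Itgb5 held 0 and Itga1 held 1. The windows of these are not printed, as more of each lies in exons. Lamc3, Itga7, Lama1, Lama4 and Itgb2, which also fell, were not found in the table and so were not searched. Searched on both strands, 42.1% of 27025 promoters of this length held at least 1, as did 15 of the 24 members found in the table (62.5%). The motif matches describe the letters alone.

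KN046 lowered 1 member of the 37 tested, Itgb2, and raised 0, where 4.0% of all genes tested passed (1.60% higher and 2.40% lower). The count over all genes moved far with the samples used. It was 559 of 13968 here, 0 with the control pairs summed, 75 with only the 8 mice compared, 21 without KN046 mouse 1 and 2096 without KN046 mouse 2, where 7 members were called, 4 higher and 3 lower. At an unadjusted p under 0.05 there were 13 members of 37, beside 23.1% of all genes tested. DESeq2 called 3 members, Itgb2 and Itgax among them, beside 8.67% of the genes it tested. The members' median log2 fold change was 0.09, beside -0.03 over all genes tested.

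Itgb2 encodes CD18, the beta chain of the leukocyte integrins. Control mice had 112, 123, 75.4 and 76.4 CPM, SB525334 mice 73.3, 57.9, 65.7 and 90.7 CPM, KN046 mice 38.3, 66, 52 and 55.4 CPM, and combination mice 108, 60.6, 64.2 and 125 CPM. All KN046 mice lay below all control mice, and the control mice themselves fell into a high and a low pair. The log2 fold change was -0.87 (edgeR SE 0.24, adjusted p = 0.0485). It held only without KN046 mouse 2 among the 8 fits with a mouse left out. In the other 7 the edgeR adjusted p was 0.0697 to 0.171, highest without KN046 mouse 1, and with the control pairs summed it was 0.248. Of 5 pan-leukocyte genes 3 fell with KN046, with a summed level of 461 to 595 CPM in control and 239 to 437 CPM with KN046. None of the 5 was at 0 in all mice, and the part of leukocytes in the Itgb2 result was not tested.

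The alpha partners of Itgb2 had log2 fold changes below 0 with KN046 and did not pass. They were -1.13 for Itgal (edgeR adjusted p = 0.114), -0.96 for Itgax, the CD11c chain (edgeR adjusted p = 0.0962), -0.32 for Itgam, the CD11b chain (edgeR adjusted p = 0.628), and -2.09 for Itgad, the CD11d chain (edgeR adjusted p = 0.264). Itgad rested on 30 counts in all control mice and 6 in all KN046 mice. These 4 genes are paralogs on chromosome 7, and how reads that align to several places were counted is not given in the sources used here.

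Of the 11 laminin chains, 10 had a log2 fold change above 0 with KN046 and none passed the edgeR test. Over all genes tested, 46.7% were above 0. At an unadjusted p under 0.05 there were 6 chains, beside 23.1% of all genes, and DESeq2 called 1. Lama5 had 223 ± 55.4 CPM in control and 349 ± 117 CPM with KN046 (SD, n = 4 each, log2 fold change 0.65, edgeR adjusted p = 0.106). The KN046 mice were more spread than the control mice and overlapped with them.

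The combination lowered 5 members of the 37 tested and raised 0, which is 13.5% of them, where 11.1% of all genes tested passed (1.37% higher and 9.74% lower). The 5 were Lama1, Itga11, Itga9, Lama4 and Itga1. Upper-quartile scaling gave 1 higher and 4 lower, and RLE size factors 1 higher and 5 lower. The members' median log2 fold change was -0.11, beside 0.01 over all genes tested. With the control pairs summed, Lama1 and Itga9 held.

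Lama1 showed the largest fold change of the 5. Control mice had 2.8, 2.89, 2.99 and 2.67 CPM, SB525334 mice 1.18, 0.796, 1.2 and 1.03 CPM, KN046 mice 0.959, 3.11, 5.98 and 2.29 CPM, and combination mice 0.103, 0.0552, 0.382 and 0.707 CPM. Each combination mouse lay below every mouse of the other groups, and the KN046 mice were the most spread. The combination gave an 8.76-fold lower level than control (log2 fold change -3.13, edgeR SE 0.57, adjusted p = 0.000641), from 25 counts against 235 over the group. The call held with each of the 8 mice left out (edgeR adjusted p up to 0.0032, log2 fold change -3.93 without combination mouse 4) and with the control pairs summed (0.00461). Of 6 epithelial markers, 5 fell with the combination and 2 with SB525334. Their summed level was 151 to 249 CPM in control, 37.1 to 50.9 CPM with SB525334, 124 to 201 CPM with KN046 and 6.6 to 16.4 CPM with the combination. None of the 6 was at 0 in all mice, and their part in the Lama1 result was not tested.

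Itga9 pairs with Itgb1 and binds tenascin-C and other ligands. Control mice had 44.3, 45.8, 24 and 22.9 CPM, SB525334 mice 26.4, 18.1, 19.6 and 24.3 CPM, KN046 mice 23.9, 28.6, 35.5 and 24.6 CPM, and combination mice 20.6, 14, 18.1 and 17 CPM. All combination mice were below all control mice, though close to control mice 3 and 4. The log2 fold change was -0.98 (edgeR SE 0.22, adjusted p = 0.0049). It passed with each of the 8 mice left out, with adjusted p up to 0.0271, and with the control pairs summed.

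Lama4 and Itga1 overlapped between control and combination. Lama4 was 49.6, 47.2, 18.5 and 17.7 CPM in control mice, 19.7, 15.5, 19 and 19.4 CPM with SB525334, 16.5, 18.9, 32.4 and 25.3 CPM with KN046, and 18.9, 16.1, 15.9 and 18.3 CPM with the combination. Only control mice 1 and 2 were clearly above the combination mice. Its log2 fold change was -0.94 (edgeR SE 0.29, adjusted p = 0.0453), and the call held only without control mouse 3 or 4 among the 8 fits with a mouse left out. The edgeR adjusted p reached 0.213 without control mouse 1 and 0.188 without control mouse 2, lay between 0.0572 and 0.128 without each combination mouse, and was 0.0725 with the control pairs summed. Lama4 overlaps Fam229b on the other strand.

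Itga1, the alpha chain of a receptor for collagen IV, was 23.3, 21.6, 12.5 and 16.3 CPM in control mice, 12.7, 9.2, 12.2 and 11.2 CPM with SB525334, 12.8, 19.5, 22.7 and 16.1 CPM with KN046, and 15.1, 7.67, 9.33 and 9.47 CPM with the combination. Combination mouse 1 lay within the control range and the other 3 below it. The log2 fold change was -0.83 (edgeR SE 0.23, adjusted p = 0.0255). Without control mouse 1 or 2, or combination mouse 2, 3 or 4, the edgeR adjusted p was 0.0776 to 0.11, and with the control pairs summed it was 0.0855. Itga1 lies over Pelo and Gm49395 on its own strand and Mocs2 on the other.

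Endothelial markers split the control mice in the same way as Lama4 and Itga9. The summed level of 6 endothelial genes was 194, 193, 84.1 and 86 CPM in control mice and 86.2 to 101 CPM with the combination, and 2 of the 6 fell. The 5 sinusoidal endothelial genes summed to 122, 125, 34.6 and 37.7 CPM in control mice and 12.1 to 32.1 CPM with the combination, and 3 of the 5 fell. With SB525334 the endothelial sum was 37.7 to 85.2 CPM and the sinusoidal sum 7.28 to 14.6 CPM. There 4 of 6 and 5 of 5 genes fell. Lama4, Itga9 and Itga1 had log2 fold changes of -0.85, -0.64 and -0.71 with SB525334 and did not pass (edgeR adjusted p = 0.0819, 0.0882 and 0.0678). Nor did they pass between the combination and SB525334 (edgeR adjusted p = 0.98, 0.818 and 0.972). With KN046 the sums were 133 to 189 and 74.7 to 101 CPM, while Lama4 was 16.5 to 32.4 CPM. None of these genes was at 0 in all mice, and the part of these cells in the Lama4, Itga9 and Itga1 results was not tested. Genes of splenic mesenchyme rose with the combination, 3 of 3, from a sum of 0 to 0.131 CPM in control mice to 2.81 to 10.2 CPM, and their part was likewise not tested.

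**Figure D4:**
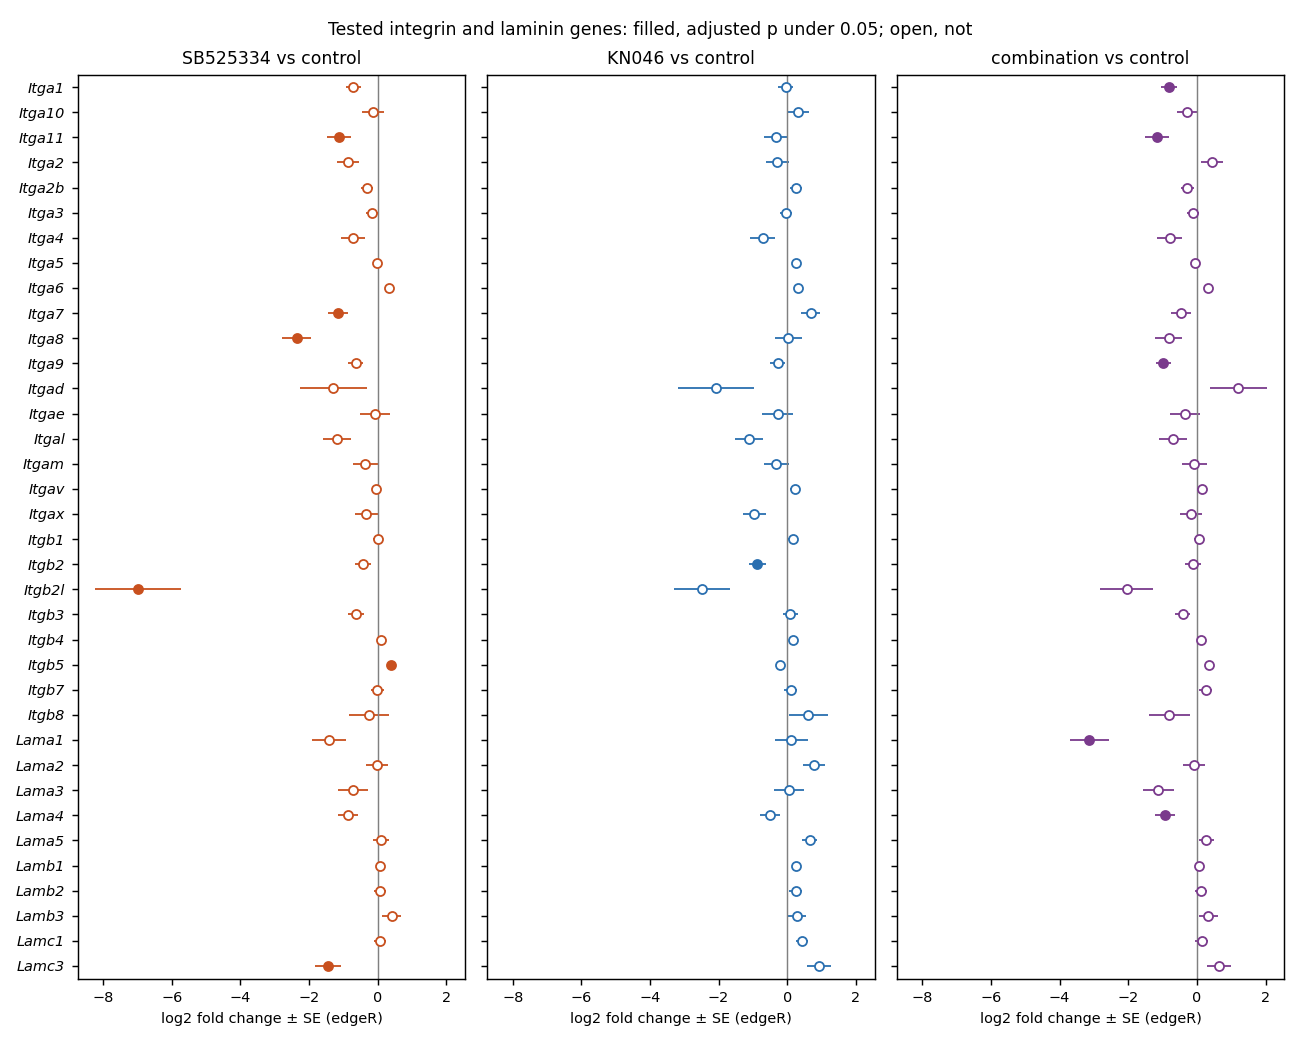
Log2 fold change ± SE (edgeR) of 36 tested members against control for each treatment, on 1 shared axis, with filled points for an adjusted p under 0.05. The filled points number 6 for SB525334, 1 for KN046 and 5 for the combination, and Itgb2l with SB525334 lies farthest from 0 at -6.98.

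Set against KN046 alone, the combination differed in 9 members, 3 higher and 6 lower, which is 24.3% of the 37, where 24.4% of all genes tested passed (9.89% higher and 14.5% lower). The share among the members was thus that of the background. Lama1 had the largest fall (log2 fold change -3.25, edgeR adjusted p = 0.000467), and Itga7 (-1.14, edgeR adjusted p = 0.00802) and Itgb5 (0.55, edgeR adjusted p = 0.00164) also moved. These calls of Lama1, Itga7 and Itgb5 passed with each of the 8 mice left out, and that of Lama1 moved to -4.05 without combination mouse 4. With the control pairs summed, 8 of the 9 calls held and Itga5 was lost (edgeR adjusted p = 0.067). This comparison holds no control sample, so the summing acts on it only through the shared fit.

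The other 6 calls against KN046 were lost in some of the fits with 1 mouse left out. Itga9 (log2 fold change -0.69, edgeR adjusted p = 0.0318) and Itga1 (-0.77, edgeR adjusted p = 0.0235) each fell, and were lost without KN046 mouse 3 or combination mouse 2, 3 or 4, with adjusted p up to 0.105. Itgb2 rose by 0.76 on the log2 scale (edgeR adjusted p = 0.0281) and was lost without KN046 mouse 1 or 3 or combination mouse 1 or 4, with adjusted p up to 0.106. Itgad was higher by 10.6 times in summed counts, 64 against 6 (95% interval 4.60 to 29.9, edgeR adjusted p = 0.0285), and was lost without KN046 mouse 1, 2 or 3 or combination mouse 2 or 4. Its fitted log2 fold change of 3.30 became 4.35 without KN046 mouse 4, which held 4 of the 6 counts. Itga2b, the platelet integrin alpha chain (log2 fold change -0.51, edgeR adjusted p = 0.0431), held only without combination mouse 1. Itga5, the alpha chain of the fibronectin receptor (-0.29, edgeR adjusted p = 0.0443), held only without KN046 mouse 2 or combination mouse 1.

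Leukocyte markers rose together with Itgb2 and Itgad here, with 3 of 5 pan-leukocyte genes and 5 of 7 macrophage genes higher with the combination than with KN046. The macrophage sum was 730 to 1596 CPM with KN046 and 1602 to 2354 CPM with the combination. The T cell genes rose as well, 5 of 5, with a sum of 3.07 to 8.31 CPM with KN046 and 15.4 to 30.2 CPM with the combination. So did 3 of 3 genes of splenic mesenchyme, with a sum of 0.0559 to 0.340 CPM with KN046 and 2.81 to 10.2 CPM with the combination. The part of these cells in the member results was not tested.

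Set against SB525334 alone, the combination was higher in 2 members and lower in 0, which is 5.41%, where 3.57% of all genes tested passed (0.544% higher and 3.03% lower). Lamc3 was 4.3-fold higher (log2 fold change 2.10, edgeR adjusted p = 0.00163), with no overlap between the groups, and passed with each of the 8 mice left out. Itga2, the alpha chain of a collagen receptor of epithelium and platelets, was 1.88 ± 0.584 CPM with SB525334 and 4.64 ± 1.23 CPM with the combination (SD, n = 4 each, log2 fold change 1.30, edgeR adjusted p = 0.0321). The Itga2 call was lost without SB525334 mouse 1, 2 or 4 or combination mouse 1 or 4, with adjusted p from 0.0689 to 0.137. Both calls held with the control pairs summed (edgeR adjusted p = 0.00303 for Lamc3 and 0.0304 for Itga2). No control sample enters this comparison, so the summing acts only through the shared fit and is no check of the calls. In the same comparison 3 of 3 splenic mesenchyme genes rose, with a sum of 0.0452 to 0.172 CPM with SB525334 and 2.81 to 10.2 CPM with the combination. So did 3 of 4 B cell genes, with a sum of 0.516 to 2.43 CPM with SB525334. The B cell sum of combination mice 1 to 4 was 16.4, 2.1, 1.97 and 50.6 CPM. Mice 2 and 3 thus lay within the SB525334 range. The part of these cells in the Lamc3 and Itga2 results was not tested.

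The test of whether SB525334 acted differently with and without KN046 passed for 1 member, where 4.28% of all genes tested passed (1.73% higher and 2.55% lower). Itgb2l had an interaction of 7.42 on the log2 scale (edgeR SE 1.59, adjusted p = 0.0109), as SB525334 mice held a single count where combination mice held 41, of which 36 came from combination mouse 4. Without combination mouse 4 the interaction was 5.0 (edgeR adjusted p = 0.0991), and it was 8.88 without SB525334 mouse 3 and 8.45 without KN046 mouse 2. With the control pairs summed the edgeR adjusted p was 0.038. Of the 6 neutrophil genes, 4 passed the same test with the same direction. For Lamc3 and Itga8, which fell with SB525334 but did not pass in the combination, the interaction itself did not pass. An unadjusted p under 0.05 was reached by 9 members of 37, beside 16.6% of all genes. DESeq2 called Itgb2l, Itga2 and Itgb2, beside 6.29% of the genes it tested.

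The remaining collagen-binding and laminin-binding chains passed against control in no treatment. Itga10, a collagen receptor chain of cartilage, had group means of 5.77 to 8.74 CPM, the highest with KN046 because of mouse 1 at 17.1 CPM. It overlaps Gm42957 on its own strand. Itga3, which binds laminin in epithelia, ranged in group means from 255 to 289 CPM, and Itgb4, the hemidesmosome chain, from 187 to 209 CPM. Itga6, the partner of Itgb4, was 40.1 ± 4.53 CPM in control mice and 49.7 to 50.6 CPM on average in the treated groups (SD, n = 4), with log2 fold changes of 0.31 to 0.33 and edgeR adjusted p from 0.111 to 0.159. None of these 3 laminin-binding chains passed against control in any treatment, whereas Itga7 fell with SB525334.

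Among chains that bind the RGD motif, Itga5 had group means of 192 to 235 CPM and Itgav of 172 to 205 CPM, and none of their tests against control passed. Itga2b ranged in group means from 6.43 to 9.43 CPM. Itgb3, a partner of both Itgav and Itga2b, was 20.1 ± 6.66 CPM in control and 13 ± 1.46 CPM with SB525334 (SD, n = 4 each, log2 fold change -0.63, edgeR adjusted p = 0.105). Of the other partners of alphaV, Itgb8 and Itgb6 were low, whereas Itgb5, described above, had group means of 229 to 347 CPM. Itgb8, whose alphaV complex releases TGF-β, had group means of 0.63 to 1.69 CPM. Itgb6, an epithelial chain with the same known function, had 8, 15, 6 and 0 counts in all in control, SB525334, KN046 and combination mice and was not tested. The 0 counts with the combination allow a level of up to 0.0389 CPM (3 counts over the group).

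Of the remaining leukocyte chains, Itga4 was 18.2 ± 10.1 CPM in control mice and 10.5 to 11.1 CPM on average in the treated groups, with log2 fold changes of -0.71 to -0.79 and edgeR adjusted p from 0.204 to 0.293. Itgae, the CD103 chain, had group means of 2.35 to 2.98 CPM, Itgb7 of 258 to 310 CPM and Itgam of 10.1 to 13.1 CPM. Itgam overlaps Gm49368 on its own strand, and how reads shared by both were counted is not given. Itgal was 47.3 ± 19.7 CPM in control mice and 20.9 ± 3.81 CPM with SB525334, and Itgax 43.9 ± 12.8 CPM in control and 22.6 ± 7.69 CPM with KN046 (SD, n = 4). The control spread of Itga4 and Itgal was the widest of their groups.

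Of the laminin chains not yet described, Lama2, a chain of muscle and nerve basement membranes, had 4.57 ± 1.64 CPM in control and 7.83 ± 1.19 CPM with KN046 (SD, n = 4 each, log2 fold change 0.77, edgeR adjusted p = 0.166). Lama3, an epithelial chain, had group means of 0.676 to 1.54 CPM. Lamb1 ranged in group means from 473 to 566 CPM, Lamb2 from 142 to 168 CPM, Lamb3 from 7.86 to 10.4 CPM and Lamc1 from 612 to 826 CPM. The highest mean of Lamb1, Lamb2 and Lamc1 was that of KN046, without a call.

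Other genes of the pathway were counted on 5 lists. Their calls are read against the 9.22% of all genes that fell with SB525334 and the 9.74% that fell with the combination. Of all genes, 0.394% rose with SB525334, 1.37% with the combination and 1.60% with KN046. Among basement membrane partners 3 of 18 tested fell with SB525334 and 0 rose, with a median log2 fold change of -0.25 beside 0.00059 over all genes. Smoc1, a secreted basement membrane protein, fell from 12.1 ± 1.36 to 1.23 ± 0.295 CPM (log2 fold change -3.28, edgeR adjusted p = 3.38e-06). Col4a3, a collagen IV chain, and Nid1, which links laminin to collagen IV, fell with log2 fold changes of -1.96 and -1.10 (edgeR adjusted p = 0.00337 and 0.00185). With the combination 5 fell and 1 rose, with a median of -0.15. The log2 fold changes of Smoc1, Col4a3 and Col4a4 were -6.36, -3.05 and -2.57 (edgeR adjusted p = 1e-08, 0.000139 and 0.00132).

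Integrin ligands held the most falls. With SB525334, 7 of 22 fell and 0 rose (median log2 fold change -0.42), and with the combination 11 fell and 1 rose (median -0.75). With SB525334 the log2 fold changes of Vtn, Fga and Fgg, which encode vitronectin and chains of fibrinogen, were -3.41, -3.30 and -3.23 (edgeR adjusted p = 1.8e-05, 1.75e-05 and 1.02e-05). With the combination those of Fga, Fgb and Fgg were -9.85, -9.82 and -9.36 (edgeR adjusted p = 1.48e-09, 1.22e-09 and 1.49e-09). These ligands are made by hepatocytes, Fga and Fgb are also on the hepatocyte list, and that list's sum was 8.21% of control with SB525334 and 0.410% with the combination. Its part in the falls was not tested.

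Adhesion adaptors had 1 call of 28 tested with SB525334 and 1 with the combination, Lims2 in both, a share below that of all genes. Lims2, which encodes the adaptor PINCH2, fell from 9.02 ± 1.22 CPM to 1.64 ± 0.791 CPM with SB525334 and 0.927 ± 0.28 CPM with the combination (SD, n = 4 each, log2 fold change -2.46 and -3.27, edgeR adjusted p = 1.44e-05 and 4.94e-07). Among 9 genes of latent TGF-β, Lrrc32, which encodes the surface anchor GARP, fell with SB525334 and with the combination (log2 fold change -1.05 and -0.96, edgeR adjusted p = 0.00129 and 0.00248). Of 7 other laminin receptors and partners 0 passed with SB525334, and with the combination Cd151, a tetraspanin that binds laminin-binding integrins, rose by 0.44 (edgeR adjusted p = 0.0213). The 5 lists had 28, 18, 22, 9 and 7 genes tested. Of these, 2 passed with KN046, where 4.0% of all genes tested passed (1.60% higher). They were Tns1 (log2 fold change 0.53, edgeR adjusted p = 0.0441) and Ltbp4 (0.62, edgeR adjusted p = 0.0267). Both rose, and both calls were lost with the control pairs summed.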

How the data were processed

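Per the submitters' processing notes and the paper's methods, the authors used cutadapt 2.7 for trimming, HISAT2 2.2.1 for alignment to GRCm39, HTSeq 2.0.4 for counting per gene and DESeq2 1.38.3 for their own tests. They deposited raw counts for each of 16 mice, which were used, and normalized counts, which were not used. Settings for strand and for reads with several alignments are not given in the sources used here, so overlapping genes and paralogs are uncertain. Groups came from the treatment labels.

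Raw counts were tested in R 4.3.3 with edgeR 4.0.16 (filterByExpr with a minimum count of 10, TMM scaling, quasi-likelihood fit of 4 group means, Benjamini-Hochberg adjustment over 13968 genes, threshold 0.05). The pipeline was tested on simulated data. Exon lengths and overlaps came from GENCODE M39, which holds 21770 of the 21959 identifiers. Alternatives were DESeq2 1.42.0, other scalings and filters, the study's thresholds, the replicate number as a block, summed control pairs, the 8 mice of a comparison alone, and each mouse left out. Totals of 18368994 to 23877131 counts limit precision for low genes, and intervals and floors cover counting error only.

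Named with each mouse's value are members past the threshold against control, up to 5 per comparison by fold change with a mean of at least 1 CPM in the higher group, and members past it in the interaction. Partner genes are the 3 largest calls per list, while Cd151, Tns1 and Ltbp4 complete counts of 5 or fewer. The members and lists were chosen with earlier results of these data known. Marker lists of B cells, dendritic cells, Kupffer cells, T cells, platelets, mesothelium and splenic mesenchyme were also summed. With SB525334 and the combination, 5 of 5 Kupffer genes fell in each, 0 and 2 of 4 B cell genes rose, 0 and 3 of 3 splenic mesenchyme genes rose, and 1 and 0 of 3 tested platelet genes fell. The T cell, dendritic cell and mesothelial lists had 0 calls in both, and with KN046 3 of 5 T cell genes fell. The values of 1 member are not reported here, though it is in the counts and medians.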

Additional observations from a re-analysis of the deposited data

Results flagged for a closer look

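Of 148 sets of 4 mice (the tested members in each group), 7 held a mouse far from the other 3, where chance alone gives about 1 in 20, or 7.4. Itga10 was 17.1 CPM in KN046 mouse 1, against 5.82 to 6.26 CPM in the other KN046 mice. Itga11 was 3.32 CPM in control mouse 1, below 5.02 to 5.33 CPM in the others. Itgb2l was 0.043 CPM in SB525334 mouse 3, a single count, and 0 in the others. In combination mouse 4, Itgb2l was 1.7 CPM against 0 to 0.154 CPM, and Lama3 was 1.04 CPM against 0.513 to 0.6 CPM. Lama2 was 7.01 CPM in control mouse 2, above 3.55 to 4.07 CPM. Lama3 was 0.302 CPM in SB525334 mouse 4, below 1.04 to 1.16 CPM.

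The SB525334 effect on Itgb2l differed with and without KN046, by 7.42 on the log2 scale (edgeR adjusted p = 0.0109). Without combination mouse 4 the adjusted p was 0.0991.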

How the results depend on the processing

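Among 388 recomputed values of single members, 0 reversed, 280 kept their call and 108 lost it, 77 of these with 1 mouse left out. Summing the control pairs left 2 members called for SB525334, 0 for KN046 and 2 for the combination, and 0 partner genes with KN046; over all 14241 genes then tested it left 1027, 0 and 1192. With KN046 the study's thresholds called 2 members and DESeq2 3, while upper-quartile scaling, the filter at a mean of 1 CPM, the replicate block and the 8 mice alone called 0 each; the 8 mice alone also called 0 partner genes. For the combination against KN046 the study's thresholds and the 8 mice alone called 5 members each, and the study's thresholds 14 partner genes against 27. For the combination against SB525334 the study's thresholds called 6 members, DESeq2 5 and the replicate block 1, and DESeq2 called 13 partner genes against 8. For the interaction the study's thresholds called 9 members, DESeq2 3, no filter 2 and the filter at 1 CPM 0. With 1 mouse left out, members called ranged from 2 to 9 (SB525334), 0 to 7 (KN046), 2 to 5 (combination), 3 to 12 (combination against KN046), 1 to 4 (against SB525334) and 0 to 3 (interaction), and partner genes from 12 to 16, 0 to 13, 18 to 23, 22 to 37, 6 to 9 and 5 to 10. For SB525334 the 9 came without control mouse 3 and the 2 without control mouse 2 or SB525334 mouse 1. For KN046 the 7 came without KN046 mouse 2, and every other omission gave 0. For the combination the 2 came without control mouse 2 or combination mouse 2 or 3. Against KN046 the 12 came without KN046 mouse 2 and the 3 without KN046 mouse 3 or combination mouse 4, and against SB525334 the 4 came without combination mouse 2. The cause of these moves was not tested. Whether the replicate numbers pair the mice was not settled, as no chance level was computed. Of same-number pairs, 11 of 24 had a correlation of deviations over 0.1 (median 0.084), and 7 of 16 mice were closest to their own number. The replicate block called 6 members with SB525334, 4 with the combination, 9 for the combination against KN046 and 1 for the interaction. Scalings moved the median of all genes by less than 0.1 on the log2 scale. Depth limits 13 members, which had under 50 counts in at least 1 mouse: Itgad, Itgb2l, Itgb6, Lama1, Itgb8, Lamc3, Lama3, Itga8, Itgae, Itga11, Itga2, Itga7 and Lama2.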
